A study of Mus musculus with 56 samples.

Results

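Liver RNA of 6 genes was followed across thyroid states and an NCOR1 mutation, namely Bdh1 and Acat1 of ketone body metabolism, Ehhadh, Acaa1a and Acaa1b of peroxisomal fatty acid oxidation, and the liver hormone Fgf21. They were picked by name, as the first listed transcript of each gene, out of 23813 genes in the RNA table, and all 6 passed the filter on low values in each comparison. The rule itself uses no measured value, though the members were chosen with earlier results of these data known.

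In the liver, fatty acids that are broken down by β-oxidation yield acetyl-CoA, and during fasting mitochondria convert acetyl-CoA to the ketone bodies acetoacetate and β-hydroxybutyrate, which are exported as fuel. Peroxisomes shorten very long chain and dicarboxylic fatty acids through a related cycle, in which an oxidase, a bifunctional hydratase and dehydrogenase, and a thiolase act in turn. FGF21 is a hormone secreted by the liver during fasting and amino acid shortage, it acts on cells that carry an FGF receptor together with the co-receptor β-Klotho, and the exocrine pancreas makes it as well. PPARα, a nuclear receptor for fatty acids, drives Ehhadh, Acaa1b and Fgf21 in fasted liver, while the transcription factor ATF4 drives Fgf21 under amino acid shortage. Thyroid hormone receptor (TR) binds DNA with or without its hormone triiodothyronine (T3), and NCOR1 is a co-repressor that binds TR and other nuclear receptors.

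Livers came from male mice, with 4 independent biological replicates per group and 12 libraries in all. Their ages, recorded in months for groups larger than those sequenced, were lower on average for L-NCOR1ΔID than for WT mice, and the part of age in the results was not tested. All mice, controls included, were fed 0.15% propylthiouracil (PTU), a blocker of thyroid hormone synthesis, in chow low in iodine for 16 days. Hypothyroid WT mice (treatment PTU) had vehicle injections, and hyperthyroid WT mice (treatment PTU_T3) had injections of 5 μg T3 on the last 4 to 6 days. Hypothyroid L-NCOR1ΔID mice (genotype L-NCORdeltaID) received PTU and vehicle, and carry in the liver an NCOR1 that lacks the domains through which it binds TR. NCOR1ΔID mice had a mixed C57BL/6;129S background, and the WT labels name no strain. Wildtype littermates of another mutant line, TR-PV, were kept on a different mixed background, partly NIH Black Swiss. Whether the WT mice used here came from that line is not stated. A difference of strain between WT and L-NCOR1ΔID mice cannot be told apart from the mutation, and its part in the results was not tested. No hyperthyroid L-NCOR1ΔID RNA was analysed here, so that the response to T3 in the mutant is not described. A second file holds the positions, without any read numbers, of 37200 merged regions with H3K9 or H3K27 acetylation in WT liver.

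Values are RPKM, reads per kilobase of transcript and M aligned reads, with an estimated depth of 21.3 to 42.5 M (mega) reads per library. Dio1, the T3-activated deiodinase, rose from 18.5 ± 26.4 RPKM (SD, n = 4) in hypothyroid to 544 ± 74.7 (n = 4) in hyperthyroid WT mice (log2 fold change 6.20, SE 1.02, limma adjusted p = 0.00118). Hypothyroid WT replicate 3 was at 57.7 RPKM of Dio1 and the other 3 hypothyroid WT mice were between 0.719 and 8.98. Thrsp, a lipogenic T3 target, rose by 2.29 on the log2 scale (SE 0.35, adjusted p = 0.000813). Ncor1 itself was at 14.7 ± 0.665 RPKM in hypothyroid WT and 13.0 ± 0.844 in L-NCOR1ΔID mice (log2 fold change -0.18, SE 0.07, adjusted p = 0.204), and the value covers the whole transcript, so that it does not check the deletion. Across all 13941 genes tested, the median log2 fold change after T3 was 0.23, and it was 0.04 after the libraries were scaled by the median of gene ratios. The changes of the members after T3 are therefore also given relative to this median.

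Hyperthyroid WT replicate 3 contained transcripts of pancreatic acinar cells, with 142 RPKM of the protease Ctrb1, 133 of the lipase Pnlip, 89.5 of Cpa1 and 327 of Cela2a. Replicate 2 contained less, with 2.26 RPKM of Ctrb1, 2.40 of Pnlip, 1.64 of Cpa1 and 10.3 of Cela2a. In the other 2 hyperthyroid mice Ctrb1 was listed at 0 and Cpa1 was at most 0.025 RPKM, and in the 4 L-NCOR1ΔID mice Pnlip was listed at 0 and Ctrb1 was at most 0.03. Amy2a5 was listed at 0 in all 12 libraries, while Cela1 was at 68.4 to 243 RPKM in the 4 hyperthyroid mice and at 8.46 to 13.6 in hypothyroid WT mice. Summed over the 6 acinar markers, the level was 73.5 to 935 RPKM in hyperthyroid WT, 9.56 to 15.1 in hypothyroid WT and 5.07 to 9.53 in L-NCOR1ΔID mice. The lowest hyperthyroid sum, in replicate 4, was mostly Cela1 (68.4 RPKM), with Cela2a at 5.10 and Ctrb1 and Pnlip listed at 0. Traces of acinar transcripts were also present in hypothyroid WT mice, where Ctrb1 was at 0.951 RPKM in replicate 2 and 1.128 in replicate 4, and Cpa1 reached 0.282. The changes of the members after T3 are given with and without hyperthyroid replicates 2 and 3. This omission also leaves fewer mice. Calls over all genes fell with it from 4488 to 2568 after T3 and from 2975 to 871 against L-NCOR1ΔID mice. Fewer mice and the absence of the acinar transcripts cannot be told apart as reasons for a lost call.

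Among the other cell types, 6 of 6 Kupffer cell markers were higher after T3 (summed 155 to 245 RPKM against 50.6 to 71.2), as were 3 of 6 stellate, 2 of 6 endothelial, 2 of 5 lymphocyte and neutrophil and 1 of 5 acinar markers, where 24.5% of all genes tested were called higher. Of 5 cholangiocyte markers 1 was higher and 1 lower, where 7.71% of all genes were called lower. Of 2 adipocyte markers tested 0 passed limma and 0 had an unadjusted p under 0.05, as 7877 of all 13941 genes did. The hepatocyte markers summed to 20889 to 29079 RPKM in hyperthyroid and 38186 to 49765 in hypothyroid WT mice, with 2 of 6 lower, and they were the most abundant list in every library. None of the marker lists had a called gene in the L-NCOR1ΔID comparison by limma. There 4 of 6 stellate, 2 of 6 hepatocyte and 2 of 6 Kupffer cell markers had an unadjusted p under 0.05. So did 2 of 4 lymphocyte and neutrophil, 1 of 6 endothelial, 1 of 2 acinar and 0 of the cholangiocyte and adipocyte markers. Of all 13790 genes tested in the mutant, 2831 had an unadjusted p under 0.05. The part of these differences in the results on T3 was not tested, and in bulk liver fewer cells of a type and less RNA per cell cannot be told apart.

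Acaa1a changed after T3, Ehhadh and Bdh1 changed in the mutant, and Fgf21 and Ehhadh differed between hyperthyroid WT and mutant mice. After T3, 1 of the 6 members passed an adjusted p of 0.01 in limma, against 32.2% of all genes tested (24.5% were called higher and 7.71% lower). In hypothyroid L-NCOR1ΔID mice 1 of 6 rose, Ehhadh, against 0.725% of all genes, and 1 of 6 fell, Bdh1, against 0.544%. Between hyperthyroid WT and L-NCOR1ΔID mice Fgf21 was higher in the former, where 15.5% of all genes were, and Ehhadh was lower, where 5.7% were, so that 2 of 6 were called against 21.2% of all genes. Asked also for a log2 fold change beyond 1, 0 of 6 members passed after T3 (8.28% of all genes passed upward and 3.47% downward). Ehhadh passed it upward in the mutant (0.537%) while Bdh1, at -0.99, did not pass downward (0.399%), and Fgf21 (5.52%) and Ehhadh (3%) passed it between hyperthyroid WT and mutant mice. The groups did not overlap for 1 of 6 members after T3, against 46.6% of all genes, for 4 of 6 in the mutant, against 13.1%, and for 4 of 6 between hyperthyroid WT and mutant mice, against 38.3%. The T3 and the mutant comparison share the 4 hypothyroid WT libraries, so that the third comparison is the direct test of the difference between their effects.

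**Figure D1:**
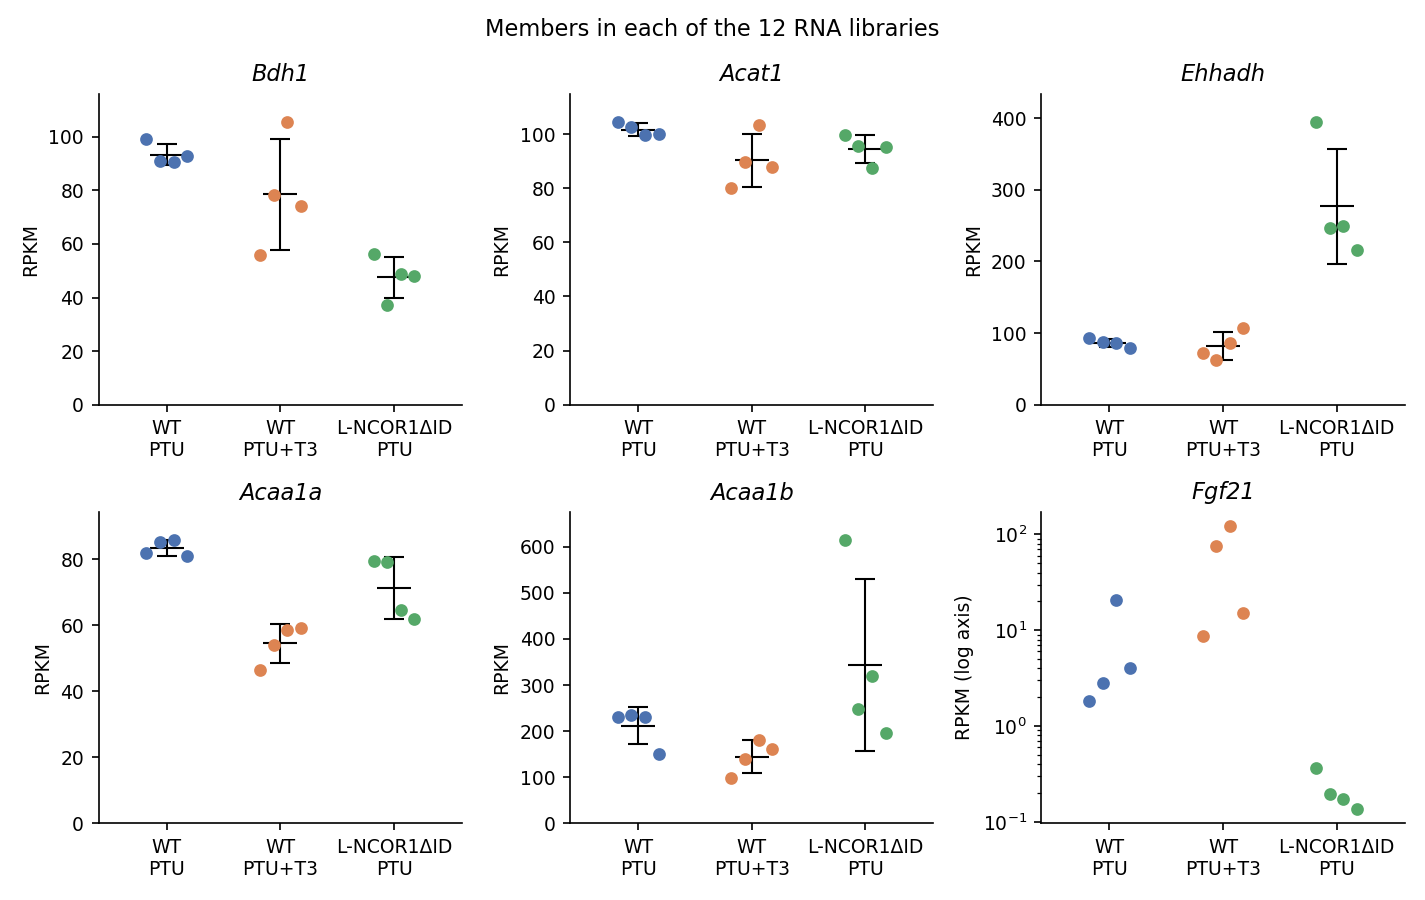
RPKM (y axis, log scale for Fgf21 only) of each member in the 12 libraries (1 point per mouse) by group (x axis), with the mean and SD where the axis is linear. Ehhadh lies between 216 and 395 RPKM in L-NCOR1ΔID mice, above every WT mouse, while Fgf21 there is at most 0.364 RPKM.

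Acat1 encodes the mitochondrial acetoacetyl-CoA thiolase, which acts in both the making and the use of ketone bodies. In hypothyroid WT replicates 1 to 4 it was at 105, 103, 99.6 and 100.044 RPKM, in hyperthyroid WT replicates 1 to 4 at 80.0, 89.8, 103 and 88.0, and in L-NCOR1ΔID replicates 1 to 4 at 99.7, 95.5, 87.5 and 95.1. The range of each group overlapped with those of the others. The log2 fold change after T3 was -0.18 (95% interval -0.36 to 0.009, adjusted p = 0.102), which is -0.41 relative to the median gene, and it was -0.28 (adjusted p = 0.0243) without hyperthyroid replicates 2 and 3. With the libraries scaled by the median of gene ratios the decrease after T3 passed the threshold (-0.38, adjusted p = 0.00283). In L-NCOR1ΔID mice the log2 fold change was -0.11 (95% interval -0.25 to 0.04, adjusted p = 0.383), so that Acat1 had the narrowest interval of the members in that comparison.

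Bdh1 encodes the mitochondrial β-hydroxybutyrate dehydrogenase, which interconverts acetoacetate and β-hydroxybutyrate. It was at 99.2, 91.1, 90.4 and 92.7 RPKM in hypothyroid WT replicates 1 to 4 and at 56.1, 37.2, 48.6 and 48.0 in the L-NCOR1ΔID mice. All 4 mutant mice were below all 4 controls. Bdh1 fell in the mutant by 0.99 on the log2 scale (SE 0.12, 95% interval -1.25 to -0.73, adjusted p = 0.00259), from a mean of 93.4 ± 4.04 to 47.5 ± 7.77 RPKM (SD, n = 4 each). This call is close to the threshold, as the adjusted p was 0.0106 to 0.012 without hypothyroid WT replicate 1, 2, 3 or 4 or L-NCOR1ΔID replicate 3, each left out alone, while the log2 fold change stayed between -1.07 and -0.88 over all 8 omissions.

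In hyperthyroid WT replicates 1 to 4 Bdh1 was at 55.7, 78.3, 106 and 74.2 RPKM. Replicate 3, with the acinar transcripts, was above every control, the other 3 were below, and the log2 fold change was -0.29 (SE 0.16, adjusted p = 0.171), or -0.52 relative to the median gene. Without replicates 2 and 3 it was -0.54 (adjusted p = 0.0119). The direct comparison of hyperthyroid WT with L-NCOR1ΔID mice gave 0.70 (SE 0.19, adjusted p = 0.019), which missed the threshold, and only hyperthyroid replicate 1 lay inside the range of the mutants. Without hyperthyroid replicates 2 and 3 it was 0.45 (adjusted p = 0.127). The table lists 2 transcripts of Bdh1, and the second gave a similar pattern, with 103 ± 4.56, 86.2 ± 22.8 and 52.6 ± 8.63 RPKM in hypothyroid WT, hyperthyroid WT and L-NCOR1ΔID mice.

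Ehhadh encodes the peroxisomal bifunctional enzyme, which hydrates and then oxidises the chain. Hypothyroid WT replicates 1 to 4 had 93.4, 87.5, 85.5 and 78.8 RPKM, and the L-NCOR1ΔID mice had 395, 246, 250 and 216. The lowest mutant was thus well above the highest control, and replicate 1 was the highest of the mutants. Ehhadh rose in the mutant by 1.64 on the log2 scale (SE 0.17, 95% interval 1.26 to 2.03, adjusted p = 0.00145), or 3.12-fold, and held under each of the 8 omissions, with 1.46 to 1.75 and adjusted p of at most 0.00807. By mean level it moved from rank 634 to rank 191 among all genes.

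Hyperthyroid WT replicates 1 to 4 had 71.998, 62.7, 86.1 and 106 RPKM of Ehhadh, values on both sides of the controls. The log2 fold change after T3 was -0.10 (95% interval -0.44 to 0.23, adjusted p = 0.586), or -0.34 relative to the median gene, and 0.023 (adjusted p = 0.915) without replicates 2 and 3. Hyperthyroid WT mice were therefore below the mutants, by 1.75 on the log2 scale (log2 fold change -1.75, SE 0.22, adjusted p = 0.000444), with no overlap between the groups. Without hyperthyroid replicates 2 and 3 this difference was -1.62 (adjusted p = 0.00914).

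The 250 bases before the Ehhadh start site, which lies in an acetylated region, are shown because Ehhadh had the largest increase of the members in the mutant. They are on the minus strand at chr16:21787908-21788157 (NCBIM37, the same assembly as mm9), from the RefSeq promoter table of GRCm38.p6 by an exact match, and the bases next to the start overlap the first exon in GENCODE M1.
Ehhadh promoter: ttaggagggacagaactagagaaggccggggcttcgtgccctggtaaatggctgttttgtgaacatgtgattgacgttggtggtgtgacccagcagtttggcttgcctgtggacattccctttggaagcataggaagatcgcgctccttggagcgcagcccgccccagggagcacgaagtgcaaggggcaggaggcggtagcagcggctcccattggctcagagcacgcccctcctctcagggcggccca
No base is in capitals, since neither 2 AGGTCA half-sites in tandem, 1 base apart (DR1, AGGTCANAGGTCA, the site of PPARα with RXR) nor one spaced by 4 bases (DR4, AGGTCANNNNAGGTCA, a site of TR with RXR) matched at 10 or more of 12 bases on either strand. Among 32851 such windows of all genes 3.24% held a DR1 and 2.57% a DR4 match of this kind. The windows of Acaa1a, Acaa1b, Bdh1 (both start sites) and Fgf21 held none either, and the table had no entry for Acat1.

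Acaa1a and Acaa1b encode the peroxisomal 3-ketoacyl-CoA thiolases, which cleave acetyl-CoA off the oxidised chain. Both lie on chromosome 9, Acaa1b at chr9:119057141-119066211 on the minus strand and Acaa1a at chr9:119250412-119259413 on the plus strand (NCBIM37, GENCODE M1). Their coding sequences have 1275 bases each, differ at 44 and are 96.5% identical, and 35.5% of the 50-base windows of the Acaa1b transcript also occur in Acaa1a. As the study used uniquely aligned reads, a read that fits both genes would be counted for neither, and the values of the pair are uncertain to that extent. The first 120 coding bases are shown to make this likeness visible, with the 4 bases that differ in capitals.
Acaa1a coding 1-120: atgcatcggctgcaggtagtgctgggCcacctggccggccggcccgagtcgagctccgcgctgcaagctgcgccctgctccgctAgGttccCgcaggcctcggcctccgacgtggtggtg
Acaa1b coding 1-120: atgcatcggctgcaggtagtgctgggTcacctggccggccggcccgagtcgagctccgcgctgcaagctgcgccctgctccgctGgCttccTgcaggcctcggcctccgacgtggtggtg

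Acaa1a was at 82.0, 85.2, 85.7 and 81.0 RPKM in hypothyroid WT replicates 1 to 4 and at 46.3, 53.9, 58.6 and 59.2 in the hyperthyroid mice. All 4 hyperthyroid mice were below all 4 controls, a separation that 46.6% of all genes showed in either direction. Acaa1a fell after T3 by 0.62 on the log2 scale (SE 0.09, 95% interval -0.81 to -0.43, adjusted p = 0.000448), or 1.54-fold, which is -0.85 relative to the median gene. The decrease passed the threshold without hyperthyroid replicates 2 and 3 (-0.67, adjusted p = 0.00322) and under each single omission.

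In L-NCOR1ΔID mice Acaa1a was at 79.5, 79.0, 64.5 and 61.9 RPKM. These values were below the controls and above the hyperthyroid mice, without overlap. The log2 fold change in the mutant was -0.24 (SE 0.10, adjusted p = 0.201), and that of hyperthyroid WT against the mutant was -0.38 (SE 0.12, adjusted p = 0.0311), and neither passed the threshold. Scaled by the median of gene ratios, the latter was -0.57 (adjusted p = 0.00488).

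Acaa1b was the most abundant member in all 3 groups. It was at 231, 235, 231 and 151 RPKM in hypothyroid WT replicates 1 to 4, at 98.9, 138, 181 and 160 in the hyperthyroid mice and at 614, 249, 319 and 196 in the L-NCOR1ΔID mice. Replicate 4 of the controls was far below the other 3, and replicate 1 of the mutants was far above its group, as it was for Ehhadh. The log2 fold change was -0.56 after T3 (SE 0.21, adjusted p = 0.0465) and 0.58 in the mutant (SE 0.32, 95% interval -0.14 to 1.31, adjusted p = 0.344), and both missed the threshold. The change after T3 was -0.80 relative to the median gene and -0.73 (adjusted p = 0.0495) without hyperthyroid replicates 2 and 3. The value in the mutant depended on single libraries, with 0.26 without L-NCOR1ΔID replicate 1 and 0.81 without replicate 4 as the lowest and the highest of 8 omissions. Hyperthyroid WT mice were all below the mutants (log2 fold change -1.15, SE 0.33, adjusted p = 0.0245), without passing it, and the value was -1.31 (adjusted p = 0.0777) without hyperthyroid replicates 2 and 3.

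The share of Acaa1b in the summed RPKM of the pair compares the 2 thiolases within each library. It was 73.8%, 73.4%, 72.9% and 65.1% in hypothyroid WT replicates 1 to 4, 68.1%, 71.96%, 75.6% and 73.0% in hyperthyroid WT and 88.5%, 75.9%, 83.2% and 76.0% in L-NCOR1ΔID mice. All mutants were above all other mice in this share. The mean share was 80.9% ± 6.13 in the mutant and 71.3% ± 4.14 in hypothyroid WT (SD, n = 4 each), a difference of 9.60 percentage points (two-sided exact permutation test, p = 0.0286, adjusted p = 0.0429 over 3 pairs of groups). That p is the smallest that 70 splits of 4 against 4 allow. Hyperthyroid WT mice, at 72.2% ± 3.10, were below the mutants (difference -8.73 points, exact p = 0.0286, adjusted p = 0.0429) and 0.86 points above hypothyroid WT (exact p = 0.686).

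**Figure D2:**
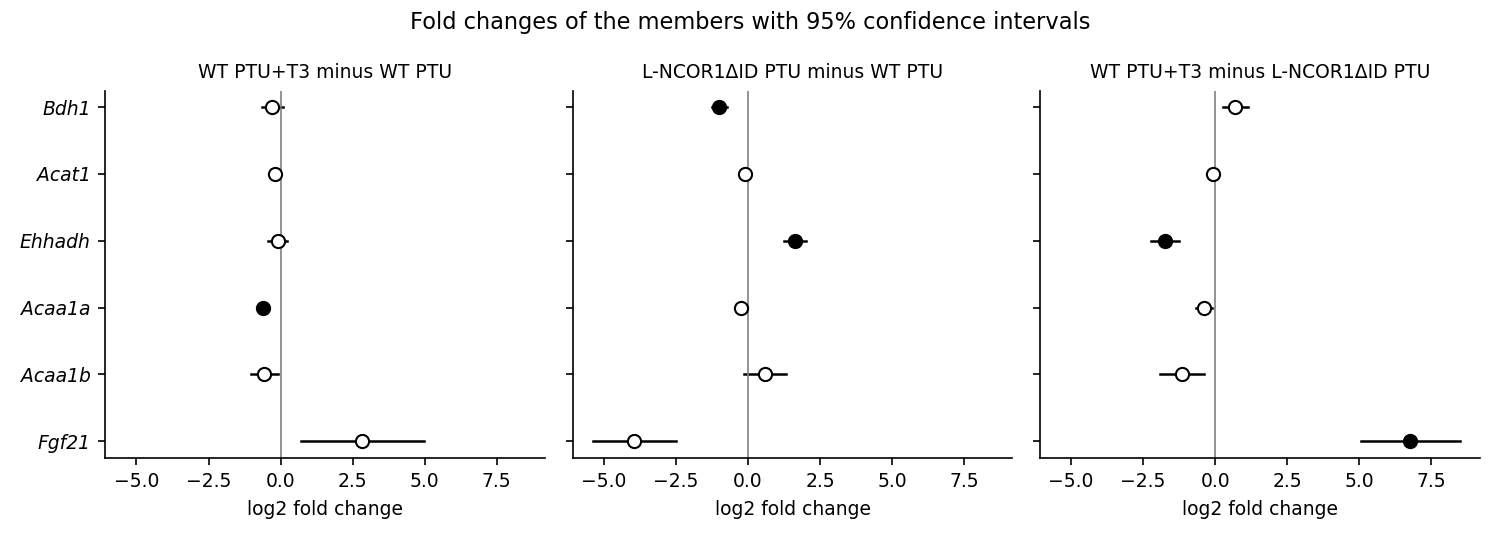
Log2 fold change (x axis) of the 6 members (y axis) in the 3 comparisons, with the 95% confidence interval as a line and filled points where the limma adjusted p was under 0.01. Filled are Acaa1a after T3 (-0.62), Ehhadh (1.64) and Bdh1 (-0.99) in L-NCOR1ΔID mice, and Ehhadh (-1.75) and Fgf21 (6.77) between hyperthyroid WT and the mutant.

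Fgf21 varied more than any other member between groups and within each WT group, but less than Acaa1b within the mutants. It was at 1.83, 2.83, 20.6 and 4.07 RPKM in hypothyroid WT replicates 1 to 4, at 8.80, 75.8, 122 and 15.2 in the hyperthyroid mice and at 0.364, 0.194, 0.173 and 0.136 in the L-NCOR1ΔID mice. In the mutants this corresponds to an estimated 14, 7, 7 and 5 reads per library, against 53 to 556 in hypothyroid WT and 205 to 2415 in hyperthyroid WT mice. All mutants were below all other mice. Hypothyroid and hyperthyroid WT mice overlapped through hypothyroid replicate 3, the control that also had the highest Dio1. In the other groups Dio1 and Fgf21 did not go together in this way. Hyperthyroid replicate 3, with the most Fgf21, had the lowest Dio1 of its group (459 RPKM). L-NCOR1ΔID replicates 3 and 4, with the least Fgf21, had the highest Dio1 of theirs (20.9 and 12.1 RPKM). The highest hyperthyroid values of Fgf21 were those of replicates 3 and 2, the libraries with the most acinar transcripts. The part of these transcripts in Fgf21 was not tested.

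**Figure D3:**
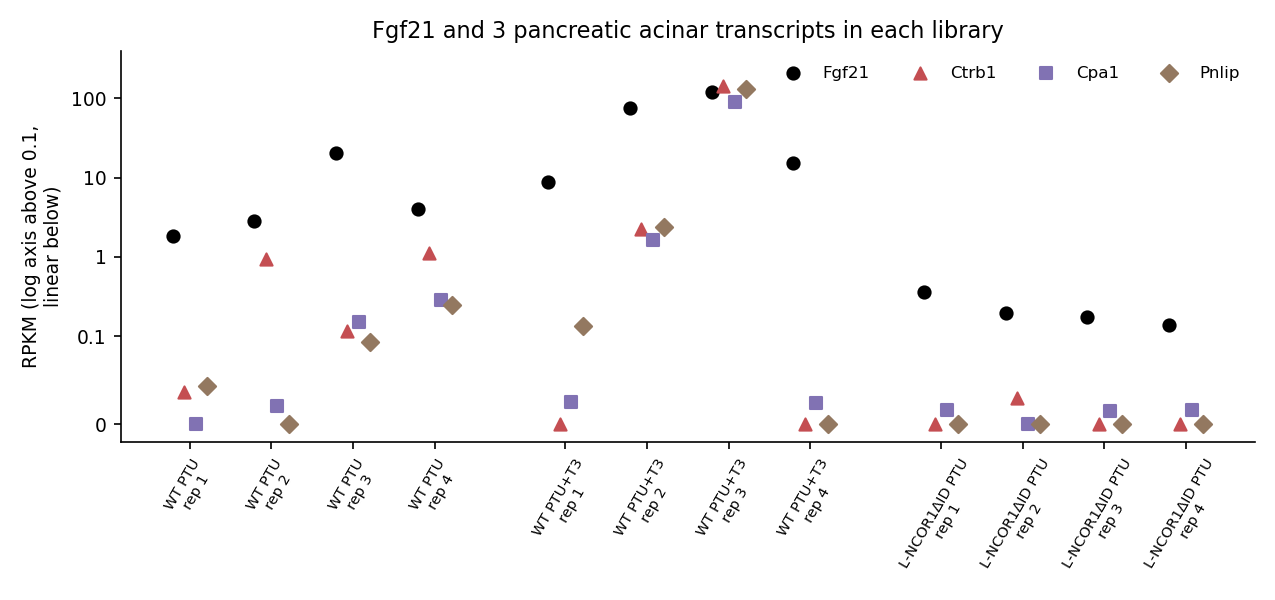
RPKM (y axis, log scale above 0.1 and linear below) of Fgf21 and of the acinar transcripts Ctrb1, Cpa1 and Pnlip in each of the 12 libraries (x axis). All 4 transcripts peak in hyperthyroid WT replicate 3, and Fgf21 is lowest in the 4 L-NCOR1ΔID mice.

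After T3 the log2 fold change of Fgf21 was 2.84 (SE 0.95, 95% interval 0.69 to 4.98, adjusted p = 0.0335), or 2.602 relative to the median gene, and it did not pass 0.01. Without hyperthyroid replicates 2 and 3, which leaves 8.80 and 15.2 RPKM, it was 1.31 (adjusted p = 0.256), and without hypothyroid replicate 3 it was 3.55 (adjusted p = 0.0109). In L-NCOR1ΔID mice Fgf21 was 3.94 lower on the log2 scale (log2 fold change -3.94, SE 0.64, 95% interval -5.39 to -2.49), with an adjusted p of 0.0116 that just missed the threshold. The lowest control, at 1.83 RPKM, was above the highest mutant, at 0.364. Without hypothyroid replicate 3 the difference was -3.23 and passed (adjusted p = 0.00347).

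Hyperthyroid WT mice had more Fgf21 than L-NCOR1ΔID mice, by 6.77 on the log2 scale (SE 0.76, 95% interval 5.06 to 8.48, adjusted p = 0.000265). The call was kept without hyperthyroid replicates 2 and 3 (5.25, adjusted p = 0.000502) and under each of the 8 single omissions (6.15 to 7.41). As values are log2(RPKM + 0.1), the small mutant levels make this fold depend on the added 0.1.

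The 250 bases before the Fgf21 start site are shown with an element of the ATF4 family in capitals. They lie on the minus strand at chr7:52870861-52871110 (NCBIM37), in no other gene of GENCODE M1, and come from the same RefSeq table.
Fgf21 promoter: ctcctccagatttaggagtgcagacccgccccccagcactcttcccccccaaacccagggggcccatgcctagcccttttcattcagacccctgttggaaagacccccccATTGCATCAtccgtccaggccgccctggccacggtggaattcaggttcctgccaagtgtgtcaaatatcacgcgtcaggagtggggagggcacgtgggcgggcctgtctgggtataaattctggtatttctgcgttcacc
The capitals match TGATGNAAT, the composite site of ATF4 with a C/EBP protein, on the opposite strand, from position -140 relative to the start. This search was added after the sequence had been looked at. Of 32851 windows of all genes 0.816% held such a match on either strand, and the other windows of the members held none. A match describes the letters only.

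Atf4 and 8 genes that ATF4 is known to drive were tested beside Fgf21. After T3, 3 of 9 rose and 0 fell, with a median log2 fold change of 0.93 against 0.23 over all genes, of which 24.5% were called higher. Atf4 itself rose by 0.80 (SE 0.13, adjusted p = 0.000972), Atf3, a stress-induced partner, by 2.30 (adjusted p = 0.00434), and Psat1, an enzyme of serine synthesis, by 2.90 (adjusted p = 0.00644). The calls of Atf3 and Psat1 were lost in 4 and 6 of the 8 single omissions. Without hyperthyroid replicates 2 and 3 only Atf4 was called and the median was 0.27, against 0.20 over all genes. In L-NCOR1ΔID mice 0 of 9 were called by limma and 2 had an unadjusted p under 0.05, where 2831 of all 13790 genes did. Atf4 was at -0.01 there (adjusted p = 0.973). Against the mutant, Psat1 (4.56, adjusted p = 0.000525) and Atf4 (0.81, adjusted p = 0.00285) were higher in hyperthyroid WT mice, and Psat1 alone passed without replicates 2 and 3. The Atf4 call was also lost without hyperthyroid replicate 3 or L-NCOR1ΔID replicate 3.

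Of 5 FGF receptors and co-receptors tested, Fgfr2 alone rose after T3 (1.14, SE 0.19, adjusted p = 0.00117), where 24.5% of all genes were called higher. Fgfr2 was not called without replicates 2 and 3. Klb, which encodes β-Klotho, was at 9.32 ± 1.19 RPKM in hypothyroid WT, 7.71 ± 0.914 in hyperthyroid WT and 9.15 ± 2.85 in the mutant (adjusted p = 0.0868 and 0.886). Fgfr4, the main FGF receptor of hepatocytes, was at 15.6 ± 1.30, 16.6 ± 1.95 and 13.7 ± 2.51 RPKM. Fgfr1, the receptor with which β-Klotho binds FGF21 in fat and brain, was at 2.06 ± 1.27, 0.999 ± 0.193 and 2.06 ± 0.845 RPKM. None of these 3 genes passed limma's test in either direction. In the mutant 0 of the 5 had an unadjusted p under 0.05, where 2831 of all 13790 genes did.

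Of 10 genes of ketone synthesis and use, Bdh1 and Acat1 included, 3 rose and 3 fell after T3. Their median log2 fold change was -0.25 against 0.23 over all genes, of which 24.5% were called higher and 7.71% lower. The ketone genes that rose were Slc16a6 (2.05, adjusted p = 0.000163) and Slc16a1 (0.83, adjusted p = 0.00119), both of the monocarboxylate transporter family, and Oxct1 (0.99, adjusted p = 0.000873). Oxct1 encodes the enzyme that starts ketone body use and was at 1.88 ± 0.268 RPKM after T3. Lower were, among others, the transporter Slc16a7 (-2.27, adjusted p = 8.42e-06) and the cytosolic dehydrogenase Bdh2 (-1.998, adjusted p = 0.000511). The same 6 genes were called without hyperthyroid replicates 2 and 3.

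In L-NCOR1ΔID mice Bdh1 was the only one of the 10 that passed, where 1.27% of all genes did. The median was -0.14 against 0.03 over all genes. Bdh2 (-0.05, adjusted p = 0.883), Oxct1 (0.45, adjusted p = 0.244) and Slc16a1 (0.23, adjusted p = 0.421) were not called. Against the mutant, hyperthyroid WT mice were higher for Slc16a6 (2.22, adjusted p = 8.2e-05) and lower for Slc16a7 (-2.08, adjusted p = 2.08e-05) and Bdh2 (-1.95, adjusted p = 0.000643), also without replicates 2 and 3.

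**Figure D4:**
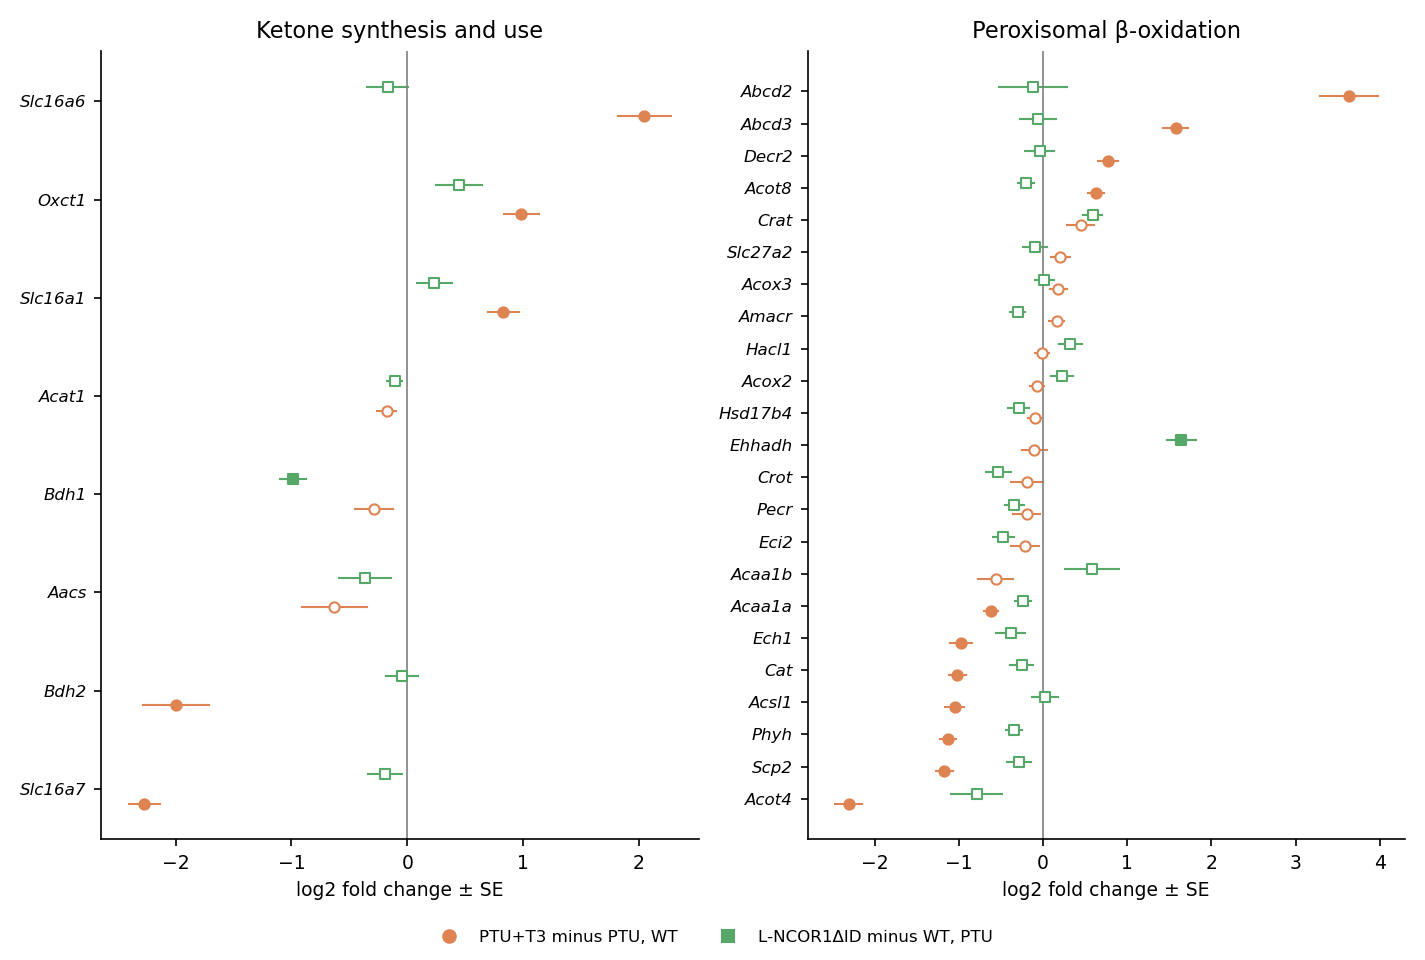
Log2 fold change with SE (x axis) of genes tested (y axis, in order of the T3 value) for ketone synthesis and use (left) and peroxisomal β-oxidation (right), after T3 in WT (circles) and in L-NCOR1ΔID against WT (squares), filled where the adjusted p was under 0.01. The filled squares are Bdh1 (-0.99) and Ehhadh (1.64), and a few genes of either list are not shown.

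Of 25 genes of peroxisomal β-oxidation tested, Ehhadh, Acaa1a and Acaa1b included, 4 rose and 9 fell after T3. Their median was -0.18 against 0.23 over all genes, of which 24.5% were called higher and 7.71% lower. The list also holds genes beyond the β-oxidation cycle itself, such as Phyh and the acyl-CoA synthetase Acsl1, which both fell. The importers of fatty acids into the peroxisome Abcd2 (3.63, adjusted p = 6.51e-05) and Abcd3 (1.57, adjusted p = 7.06e-05) and the reductase Decr2 (0.77, adjusted p = 0.000697) led the rise. Acot4 (-2.31, adjusted p = 1.72e-05), a thioesterase, Phyh (-1.13, adjusted p = 3.18e-05), which starts α-oxidation, and Scp2 (-1.17, adjusted p = 4.64e-05), the thiolase of branched chains, led the fall. The isomerase Ech1 fell as well (-0.97, adjusted p = 0.000341). Hsd17b4, the other bifunctional enzyme (-0.10, adjusted p = 0.32), Crot (-0.18, adjusted p = 0.443), which makes carnitine esters for export, and the acyl-CoA synthetase Slc27a2 (0.21, adjusted p = 0.166) were not called. Of these 25 genes, 9 were lower and 3 higher without hyperthyroid replicates 2 and 3.

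The median of these 25 genes in L-NCOR1ΔID mice was -0.14 against 0.03. Ehhadh was the only one to pass, where 1.27% of all genes did. Its counterpart Hsd17b4 was at -0.29 (adjusted p = 0.224). Scp2 (-0.29, adjusted p = 0.303), Abcd3 (-0.06, adjusted p = 0.913), Ech1 (-0.38, adjusted p = 0.25), Crot (-0.53, adjusted p = 0.0798) and Slc27a2 (-0.09, adjusted p = 0.763) were not called. Hyperthyroid WT against the mutant gave 5 higher and 8 lower, where 15.5% and 5.7% of all genes were. Abcd3 (1.63, adjusted p = 0.000202), Acot8 (0.83, adjusted p = 0.000231), a thioesterase, and Abcd2 (3.75, adjusted p = 0.00025) were first among the higher ones. Ehhadh and Acsl1 (-1.07, adjusted p = 0.00114), an acyl-CoA synthetase, were among the lower ones. Without hyperthyroid replicates 2 and 3 the counts in this list were 3 and 2, while calls over all genes fell from 2975 to 871. Ehhadh was still among the lower ones.

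Of 16 genes of peroxisome assembly 2 rose and 2 fell after T3, where 24.5% of all genes were called higher and 7.71% lower. Pex6 (0.50, adjusted p = 0.00484), an ATPase of receptor recycling, and Pex11a (0.55, adjusted p = 0.00556), a PPARα target in peroxisome division, rose. Pex26 (-1.07, adjusted p = 0.00134) and Pex5 (-0.30, adjusted p = 0.00247), the import receptor, fell. Neither of the increases was called without hyperthyroid replicates 2 and 3 or after scaling by the median of gene ratios, and in single omissions the call of Pex6 was lost in 5 and that of Pex11a in 6 of 8. None of the 16 was called by limma in the mutant, and 3 had an unadjusted p under 0.05, where 2831 of all 13790 genes did. Pex11a was at -0.45 there (adjusted p = 0.331). Pex6 (0.67, adjusted p = 0.000973) and Pex2 (0.35, adjusted p = 0.00378), a ubiquitin ligase subunit, were higher in hyperthyroid WT than in mutant mice, and the Pex2 call was lost in 6 of the 8 single omissions and without replicates 2 and 3, as was that of Pex6 in the latter case.

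Over all genes the median after T3 was 0.23, with 24.5% called higher and 7.71% lower. Among 8 thiolases, the 3 thiolase members included, the median was -0.54, 0 rose and 4 fell. They were Scp2, Acat3 (-0.83, adjusted p = 0.000147), Acaa1a and Acaa2, the mitochondrial thiolase of β-oxidation (-0.51, adjusted p = 0.000734), and the same 4 fell without hyperthyroid replicates 2 and 3. Acat2, the cytosolic acetoacetyl-CoA thiolase of sterol synthesis, was at 0.44 (adjusted p = 0.0728) and passed without these replicates (0.72, adjusted p = 0.00534). None of the 8 was called by limma in the mutant, and 5 had an unadjusted p under 0.05, where 2831 of all 13790 genes did. Acaa2 was at -0.35 there (adjusted p = 0.0456) and Acat2 at 0.51 (adjusted p = 0.023). Scp2 (-0.88, adjusted p = 0.00231) and Acat3 (-0.61, adjusted p = 0.00187) were lower in hyperthyroid WT than in mutant mice.

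Of PPARα and its liver targets, 20 genes that include Ehhadh, Acaa1b and Fgf21, 3 rose and 4 fell after T3. Their median was -0.22 against 0.23 over all genes, of which 24.5% were called higher and 7.71% lower. The lipid droplet protein Plin2 (1.19, adjusted p = 0.000461), Pex11a and the kinase Pdk4 (1.70, adjusted p = 0.00674) rose, and the dehydrogenase Acadm (-1.27, adjusted p = 3.39e-05) and the thioesterase Acot1 (-3.26, adjusted p = 4.08e-05) were the first of those that fell. The call of Pdk4 was lost in 4 and that of Pex11a in 6 of the 8 single omissions. After scaling by the median of gene ratios, the split was 1 higher and 7 lower, and without hyperthyroid replicates 2 and 3 it was 1 and 5. Ppara itself was at 48.3 ± 2.13, 41.6 ± 6.39 and 44.0 ± 11.8 RPKM in hypothyroid WT, hyperthyroid WT and mutant mice (adjusted p = 0.107 and 0.592). Cpt1a, the gate of fatty acids into mitochondria, was at -0.05 after T3 (adjusted p = 0.804) and -0.44 in the mutant (adjusted p = 0.328).

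In L-NCOR1ΔID mice 2 of these 20 genes were called, in opposite directions, against 1.27% of all genes. Ehhadh rose, and Creb3l3, a liver transcription factor that acts with PPARα on Fgf21, fell from 139 ± 7.85 RPKM to 88.6 ± 8.95 RPKM (log2 fold change -0.65, SE 0.09, adjusted p = 0.00477). That call is near the threshold and was lost in 6 of the 8 single omissions, with adjusted p of up to 0.024. The median over the 20 was -0.29 against 0.03 over all genes. Creb3l3 was also lower after T3, without passing (-0.41, adjusted p = 0.0157). Against the mutant, hyperthyroid WT mice were higher for Fgf21 and Plin2 (1.32, adjusted p = 0.00114) and lower for 5 genes. Over all genes 15.5% were called higher and 5.7% lower. Acot1 (-3.71, adjusted p = 0.000353), Ehhadh and Acadm (-0.75, adjusted p = 0.00369) were first among the 5 lower ones. The Acadm call was lost in 3 of the 8 single omissions.

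Per library, the genes most alike to each member were sought by Pearson's r of log2(RPKM + 0.1) over the 12 libraries among 10663 genes with a mean of at least 1 RPKM. The libraries share groups and differ in depth, so that r describes these 12 points only. For Bdh1 they were Ctse (0.957), Hadha (0.948) and Dhrs4 (0.924), for Acat1 Anxa4 (0.910), Pip4k2b (0.905) and Eid1 (0.893), and for Ehhadh, among others, Col4a3bp (0.950) and Slc18a1 (0.947). Hadha encodes a subunit of the mitochondrial trifunctional protein of β-oxidation. For Acaa1a they were Slc25a13 (0.957), Aifm3 (0.950) and Acadm (0.944), for Acaa1b Kdsr (0.915), Ugcg (0.903) and Tmem43 (0.897), and for Fgf21 Tsc2 (0.964), Bap1 (0.964) and Armc6 (0.951). Kdsr and Ugcg both encode enzymes of sphingolipid synthesis. Among the members, r was highest for Ehhadh with Acaa1b (0.795) and lowest for Ehhadh with Fgf21 (-0.816).

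All 6 members had a merged acetylated region over a start site. The share of all genes with such a region was not counted, so that this does not set the members apart. The region of Acat1 spanned 24238 bp at chr9:53402416-53426653, that of Acaa1b 15078 bp at chr9:119061106-119076183, that of Ehhadh 11531 bp at chr16:21778164-21789694, that of Fgf21 9852 bp at chr7:52862995-52872846, that of Bdh1 8106 bp at chr16:31418735-31426840 and that of Acaa1a 7799 bp at chr9:119247675-119255473 (NCBIM37). Of all 37200 regions, 263 were at least as long as that of Acat1 and 3723 as long as that of Acaa1a, the longest and the shortest of the members. The median of all regions was 2537 bp. Regions over the start sites of other genes were not compared, so that these lengths are not shown to be unusual for a start site. A second start site of Bdh1, at position 31428839, lay in none. Within 100 kb of the start there were 12 regions at Acaa1a, 11 each at Ehhadh and Fgf21, 9 at Bdh1, 8 at Acaa1b and 5 at Acat1. The file holds positions merged over marks and over both WT conditions, so that it gives no acetylation level and no difference between the groups.

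**Figure D5:**
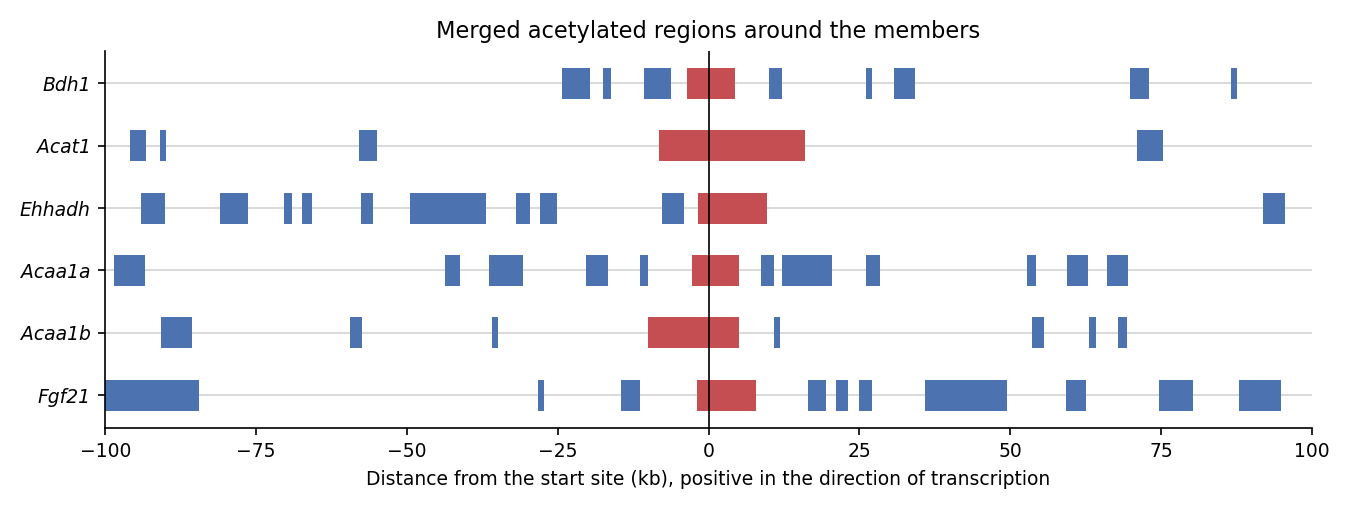
Merged acetylated regions (bars) around the start site of each member (y axis), by distance from it in kb (x axis, positive in the direction of transcription), with regions over the start site in red and the others in blue. The region of Acat1, 24238 bp, is the longest of those over a start site of a member.

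The regions over the start sites were searched for DR1 and DR4 matches at 11 or more of 12 bases on both strands. The 4 that were found, 1 each at Acaa1b, Acat1, Bdh1 and Fgf21, were all DR1, and they are shown on the strand of the match with 20 bases on either side and the half-sites in capitals.
Bdh1 DR1: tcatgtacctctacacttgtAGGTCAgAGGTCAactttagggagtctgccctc
Acaa1b DR1: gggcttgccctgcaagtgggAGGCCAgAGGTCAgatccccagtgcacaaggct
Acat1 DR1: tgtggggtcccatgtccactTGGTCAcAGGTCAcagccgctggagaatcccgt
Fgf21 DR1: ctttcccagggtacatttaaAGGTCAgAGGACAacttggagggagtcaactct
The Bdh1 match, at 12 of 12 bases, was at chr16:31425035-31425047 on the plus strand in an intron of Bdh1, with its centre at 2658 bp from the start. The Acaa1b match was intergenic at chr9:119067154-119067166 on the plus strand, at -949 bp, the Acat1 match was in an intron of Acat1 at chr9:53406847-53406859 on the plus strand, at 11634 bp, and the Fgf21 match was intergenic at chr7:52866141-52866153 on the minus strand, at 4713 bp. Among acetylated regions within 10% of the same length, 22.0% (Bdh1), 40.2% (Acaa1b), 47.3% (Acat1) and 25.9% (Fgf21) held at least 1 such DR1, so that a match in a region of this size is common. The regions of Ehhadh and Acaa1a held none, where 30.6% and 21.1% of like regions did. No region over a start site of a member held a DR4, where 8.7% to 20.5% of like regions did. The other regions within 100 kb were not searched, so that sites there are not described. One of them, upstream of Ehhadh at chr16:21824807-21837442 (-49535 to -36900 bp), lies in a stretch that the paper pictures. The paper gives that stretch as an example of TR binding with high occupancy of the histone deacetylase HDAC3 in hypothyroid liver. The part of this region in the level of Ehhadh was not tested.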

How the data were processed

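RNA was purified from frozen liver and poly(A)-selected, and according to the labels each library was run on 2 sequencer models. The authors aligned reads to mm9 with STAR, used those aligned uniquely and quantified them with HOMER. They deposited RPKM values per RefSeq transcript, 31370 in all, of which 1 had no gene name and was removed (0.00079% of all RPKM or less). Tool versions are not given in the sources used here. The other deposited file, merged acetylated regions called with HOMER, holds only positions.

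From these, depth was estimated as the read number that made low RPKM values whole reads (71.0 to 77.8% within 0.1 of a whole number), and summed RPKM was 377335 to 412558 per library. Intervals and tests cover the spread between mice. No pair of libraries was identical, as at most 0.07% of 9370 values were equal. Log2(RPKM + 0.1) was tested with limma 3.58.1 (R 4.3.3) with a variance trend, only the 2 groups compared, genes of at least 0.1 RPKM in at least 4 libraries, and Benjamini-Hochberg adjustment, with calls at adjusted p under 0.01. The study's own rule for T3 also asks for a log2 fold change above 1. The procedure was tested on simulated data. Shares were compared by exact permutation in Python 3.11.15 with scipy 1.17.1. Groups came from the titles of the samples, and the values of 0 further sample columns were left out.

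The members, pathway lists, marker lists, rule for named genes and alternatives were chosen with earlier results of these data known. Named are the 6 members, a fixed choice from the lists, for each list and comparison the 3 called genes with the smallest adjusted p in each direction, the 3 genes most alike to each member, and Dio1, Thrsp and Ncor1. Some genes that this rule names are not reported here, though counts over the lists include them. Alternatives were pseudocounts of 1 and 0.01, no filter, a minimum mean of 1 RPKM, a joint fit of all 12 libraries, a replicate block, no trend, libraries rescaled by their median gene ratio, adjusted p under 0.05, the transcript with the highest mean, and each library left out. Leaving out hyperthyroid replicates 2 and 3 together was chosen after the data were seen.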

Additional observations from a re-analysis of the deposited data

Results flagged for a closer look

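In all, 24 groups of 4 libraries were examined for a value that stands apart from the rest of its group. The gap to the nearest value over the range was set against Dixon's critical value. Of these groups 4 held such a value, where chance gives about 1 in 20 for normally distributed values. The values used here were RPKM without a log scale, and the share is computed from Acaa1b, so that the groups are not independent. All 4 values were in hypothyroid WT, in replicates 3 and 4. Acaa1b was lowest in replicate 4, at 151.1 RPKM, and the Acaa1b share of the thiolase pair was lowest there too, at 65.11%. Fgf21 was highest in replicate 3, at 20.57 RPKM, and Dio1 was highest in that library as well, at 57.68 RPKM.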

How the results depend on the processing

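The groups shared replicate numbers, and the deviations of same-numbered libraries correlated at -0.207 to 0.267 over 12 pairs. These values show no clear pairing of the mice by number, but they cannot settle whether mice were matched. With a replicate block 45 genes were called in the mutant and 1642 between hyperthyroid WT and mutant mice (175 and 2975 without), Fgf21 passed after T3 (2.84, adjusted p = 0.00511), and Bdh1 missed the threshold in the mutant (-0.99, adjusted p = 0.0125). At adjusted p under 0.05, 6880, 601 and 5407 genes were called after T3, in the mutant and between these groups, and Acaa1b (-0.56) and Fgf21 (2.84) passed after T3, Fgf21 (-3.94) in the mutant, and Acaa1a (-0.38), Acaa1b (-1.15) and Bdh1 (0.70) between hyperthyroid WT and mutant mice. With all 12 libraries in 1 fit the last 3 passed as well (adjusted p = 0.00919, 0.00992 and 0.00505).

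After scaling by the median of gene ratios, 52.4% of calls after T3 and 47.1% of those between hyperthyroid WT and mutant mice were higher, against 76.0% and 73.1%, Acat1 fell after T3 (-0.38), Acaa1a passed against the mutant (-0.57), and Fgfr4 turned to -0.11. A pseudocount of 0.01 made Fgf21 pass in the mutant (-4.43). Without hyperthyroid replicates 2 and 3 the counts were 2568 and 871, and Ehhadh after T3 was 0.023. The window of 50 kb left 3 regions at Acaa1b, 1 at Acat1, 5 at Ehhadh and 7 at Fgf21.

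Each library left out in turn gave 3184 to 3892 calls after T3, 67 to 187 in the mutant and 1651 to 2672 between the remaining groups. Ehhadh after T3 was -0.24 to 0.015, Bdh1 was -1.07 to -0.88 in the mutant and 0.55 to 0.85 against it, and Fgf21 was -4.37 to -3.23 in the mutant. The Acaa1b share differed by 7.05 to 11.26 points in the mutant and by -10.40 to -6.18 against it, each with an exact permutation p of 0.0571, the smallest that 3 against 4 allow, and by -1.20 to 2.22 after T3. Cpt1a after T3 was -0.18 to 0.10, and in the mutant Abcd3 was -0.20 to 0.12, Atf4 -0.089 to 0.074, Bdh2 -0.16 to 0.058, Fgfr1 -0.14 to 0.44, Klb -0.24 to 0.11 and Slc27a2 -0.16 to 0.036. The cause was not tested for any of these changes.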
